A study of Drosophila melanogaster with 4 samples.

Results

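The piRNA cluster rows numbered above 70 are 72 of the 142 cluster rows in a table of 34705 rows of ovary RNA. They were chosen by name alone, as every row called cluster followed by a whole number from 71 to 142. The other cluster rows are 68 numbered rows from 70 downward and the rows named 42AB and flam, and the numbers 1 and 8 carry no row. Poly(A)-enriched RNA came from ovaries of adult Drosophila melanogaster, with 2 Control libraries (the cross mat>Luc) and 2 Nup358GLKD libraries, in which the nucleoporin Nup358 was knocked down in the germline. The labels give 10 to 15 pairs of ovaries to each library and call the libraries biological repeats, without saying whether flies or crosses were separate, so the spread behind each p-value may be technical. Whole ovaries also hold somatic cells, which a germline knockdown does not target. The question named by the series is what Nup358 does in transposon silencing and in piRNA biogenesis.

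piRNA clusters are genomic loci rich in fragments of transposons, and their long transcripts are cut into piRNAs, the small RNAs that guide PIWI proteins to transposon RNA and transposon genes. In germ cells, many clusters are transcribed through Rhino, a heterochromatin protein that works with Deadlock and Cutoff, and their transcripts leave through nuclear pores, of which Nup358 is a cytoplasmic part, to be processed in granules at the outer face of the nucleus. A cluster row in a poly(A) RNA table holds any RNA that the counting assigned to the locus, and a piRNA is too short to be measured in such a library. The strand setting is not given in the sources used here, so sense and antisense RNA of a locus cannot be told apart.

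The libraries held 58876800 to 60792292 expected counts each. Levels are given as CPM, counts per 1000000 of a library size scaled with TMM factors, and a floor of 3 counts is 0.0494 to 0.051 CPM. The level of Nup358 was 662.3 and 624.3 CPM in Control replicates 1 and 2, against 282.7 and 151.2 CPM in Nup358GLKD replicates 1 and 2. The groups did not overlap, but the difference missed the threshold (log2 change −1.57, SE 0.34, edgeR adjusted p = 0.0525). Muscle sheath markers (8 genes) summed to 322.6 and 255.7 CPM in Control, 1468 CPM in Nup358GLKD replicate 1 and 307.3 CPM in replicate 2, and 0 of the 8 passed. Markers of fat body and haemocytes (6 genes, 5 tested) summed to 1.18 and 2.03 CPM in Control and 25.4 and 23.1 CPM in the knockdown, with 2 higher, 0 lower and none of the 6 at 0 in all libraries. In the knockdown this sum was mostly Lsp2, at 0.271 and 0.732 CPM in Control and 16.2 and 17.9 CPM in the knockdown. Hml had 0.575 and 0.553 CPM in Control and 6.81 and 0.847 CPM in Nup358GLKD replicates 1 and 2. Follicle cell markers (15 genes) summed to 21510 and 20290 CPM in Control and 16760 and 23580 CPM in the knockdown, with 2 higher and 1 lower. That sum rests mostly on yolk protein and eggshell genes, such as Yp2 at 3706 and 3302 CPM in Control. By gene, the knockdown pair lay above the Control pair for 8 of the 15 and below it for 2. The shares over all tested features were 37.9% and 39.8%. The median log2 change of the 15 was 0.62. Germline markers (10 genes) summed to 4772 and 4866 CPM in Control and 5743 and 6444 CPM in the knockdown, with 1 higher and 0 lower. The 1 called, orb, had 716.5 and 702.1 CPM in Control and 2131 and 1685 CPM in the knockdown. By gene, the knockdown pair lay above the Control pair for 3 of the 10 and below it for 3, and the median log2 change was 0.18. Over all tested features, 9.54% were called higher and 9.02% lower. In whole ovaries fewer cells of a type and less RNA per cell cannot be told apart, and the part of these markers in the results that follow was not tested.

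RNA of the cluster rows above 70 was about 2-fold more abundant in the knockdown when all 72 rows were summed. The sums were 127.3 and 122.1 CPM in Control replicates 1 and 2 and 297.5 and 245.0 CPM in Nup358GLKD replicates 1 and 2. The groups did not overlap, and within the knockdown replicate 1 was the higher library. The means were 124.7 ± 3.72 CPM and 271.2 ± 37.2 CPM (SD, n = 2 each), a ratio of 2.18 (exact permutation test over samples, two-sided p = 0.333, the smallest that 2 against 2 allows). Members took 0.0131% and 0.0126% of all counts in Control and 0.0281% and 0.0243% in the knockdown, so that each library rests on 7509 to 16551 member counts.

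Most of this RNA came from few rows. 8 rows with a mean of at least 8 CPM held 70.6% and 71.4% of the sum in Control and 71.9% and 74.2% in the knockdown. The next 17 rows, from 1 to under 8 CPM, held between 20.3% and 23.2%. All 64 rows outside those 8 summed to 37.4 and 34.9 CPM in Control against 83.6 and 63.2 CPM in the knockdown. Their ratio was 2.03, beside 2.23 for the 8. CPM is not per length, and row lengths are not used here, so the order of rows by level also follows how long each locus is.

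**Figure D1:**
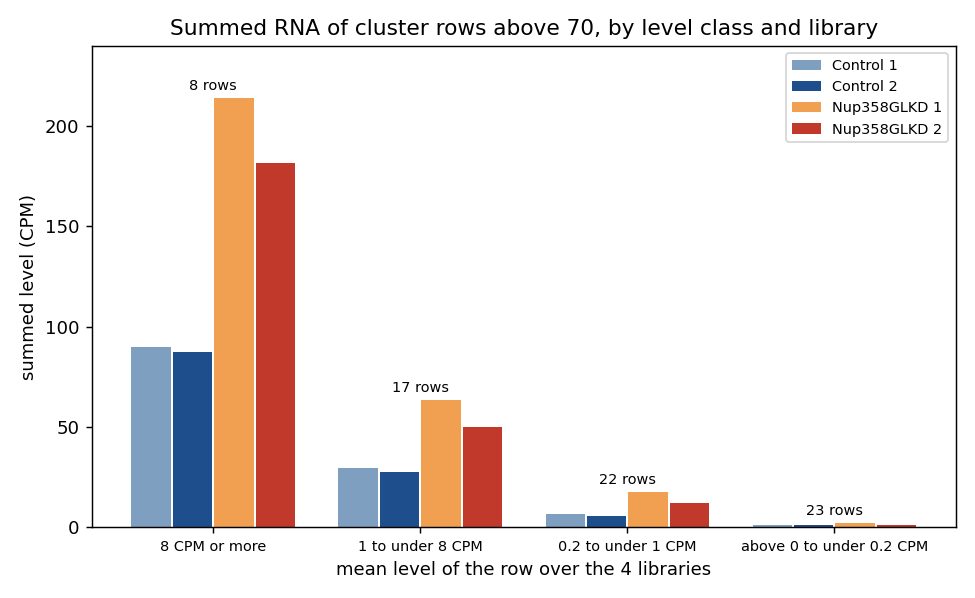
Summed level in CPM (linear axis) of the cluster rows above 70, divided by the row's mean level over the 4 libraries, with 1 bar per library. In the class of 8 rows at 8 CPM or more the Control bars stand at 89.96 and 87.2 CPM and the knockdown bars at 213.9 and 181.8 CPM.

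50 of the 72 rows had enough counts to be tested. The filter asks for about 10 counts in 2 libraries, and 4 of the 50 had under 10 counts in both Control libraries, so they passed only through the knockdown and could enter the test only by being higher there. 1 of these 4, cluster132, is among the rows called. cluster93, also called, had 7.82 and 11.43 counts in Control, so it too needed a knockdown library to pass the filter. Of the 50, 11 rose, 0 fell and 39 did not pass in edgeR's quasi-likelihood test at an adjusted p under 0.05, beside 9.54% of all 10210 tested features called higher and 9.02% called lower. At an unadjusted p under 0.05, 25 members were higher and 0 lower. The knockdown pair lay above the Control pair for 42 of the 50 and below it for 1, beside 37.9% and 39.8% of all tested features. Counting only the 39 rows with at least 10 counts in every library, 35 lay above and 9 passed. The median log2 change of the 50 was 1.09, with the middle 50% of rows between 0.63 and 1.53, against a median of 0.01 over all features. The calls depended on the Control pair. Without Control replicate 1 or without Control replicate 2 edgeR called 0 members (12 and 10 at an unadjusted p under 0.05), while 20 passed when Nup358GLKD replicate 1 was left out (29.1% of all features) and 35 when Nup358GLKD replicate 2 was left out (35.5%). None of the features of the table was called higher in either fit that lacked a Control library, nor with RefSeq transcripts left unsummed, where 0 members passed in edgeR (18 at an unadjusted p under 0.05, lowest adjusted p = 0.0608). The same 11 rows passed with RLE factors (9.73% of all features), total counts (8.75%), limma-voom (10.0%) and the older quasi-likelihood fit of edgeR (9.15%). DESeq2 called 16 members (18.9% of all features) and the fit without a filter 10 (5.06%).

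**Figure D2:**
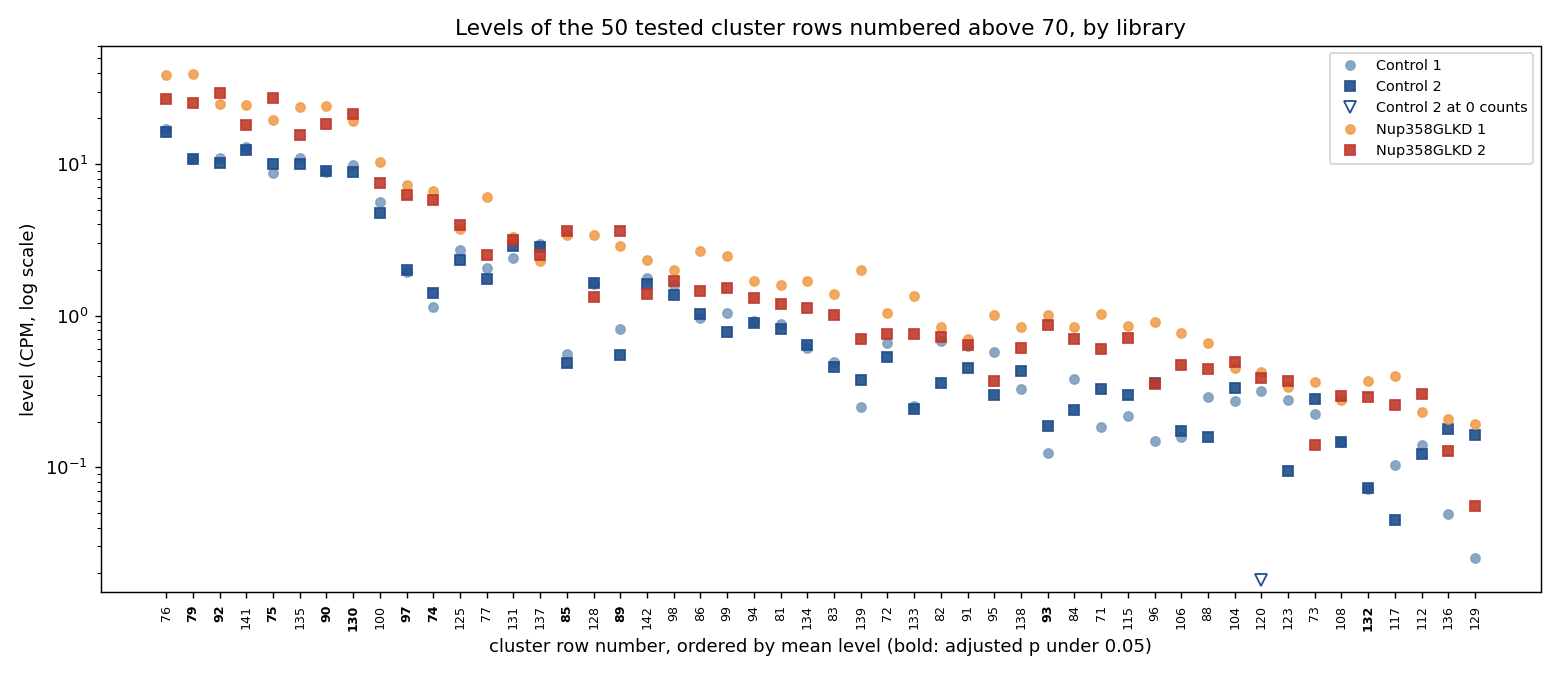
Level in CPM (log axis) of each of the 50 tested rows in each of the 4 libraries, ordered by mean level, with bold numbers for the 11 rows at an adjusted p under 0.05 and an open triangle for a value of 0. Knockdown points lie above both Control points in 42 columns, and the levels run from 24.6 CPM on average for cluster76 to 0.109 CPM for cluster129.

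The 8 most abundant rows were all higher in both knockdown libraries, and 5 of them passed. cluster79 had 10.7 and 10.8 CPM in Control and 39.2 and 25.2 CPM in the knockdown (log2 change 1.58, SE 0.26, edgeR adjusted p = 0.0383). Its Control libraries were nearly equal, and its knockdown libraries differed 1.56-fold. cluster92 had 11.02 and 10.1 CPM in Control and 24.8 and 29.4 CPM in the knockdown (log2 change 1.36, SE 0.17, edgeR adjusted p = 0.0293). cluster75 had 8.72 and 9.99 CPM in Control and 19.6 and 27.1 CPM in the knockdown (log2 change 1.32, SE 0.23, edgeR adjusted p = 0.0399). For cluster92 and cluster75 replicate 2 was the higher knockdown library, the opposite of cluster79. cluster90 had 8.83 and 8.93 CPM in Control and 24.2 and 18.2 CPM in the knockdown (log2 change 1.26, SE 0.20, edgeR adjusted p = 0.0377). cluster130 had 9.88 and 8.82 CPM in Control and 19.3 and 21.5 CPM in the knockdown (log2 change 1.12, SE 0.16, edgeR adjusted p = 0.0331). These 5 rows were between 2.18-fold and 2.997-fold higher on the mean.

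The other abundant rows did not pass, although their groups did not overlap either. cluster76, the row with the highest mean level, had 16.9 and 16.1 CPM in Control and 38.6 and 26.7 CPM in the knockdown (log2 change 0.98, SE 0.23, edgeR adjusted p = 0.0566). cluster141 had 12.8 and 12.4 CPM in Control and 24.3 and 18.0 CPM in the knockdown (edgeR adjusted p = 0.072). cluster135 had 10.99 and 10.02 CPM in Control and 23.8 and 15.6 CPM in the knockdown (edgeR adjusted p = 0.0775). In each of these 3 rows Nup358GLKD replicate 1 lay well above replicate 2, by 1.35-fold to 1.52-fold, and the Control libraries differed far less. All 3 passed in DESeq2, with adjusted p-values of 0.00304, 0.0183 and 0.0157. cluster100, ninth by level, had 5.58 and 4.76 CPM in Control and 10.3 and 7.46 CPM in the knockdown (edgeR adjusted p = 0.0967, and 0.0453 in DESeq2).

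Among the rows that passed, those outside the 8 most abundant had a low or moderate level and the larger log2 changes. cluster85 had 0.554 and 0.488 CPM in Control and 3.41 and 3.61 CPM in the knockdown, a 6.74-fold higher mean (log2 change 2.74, SE 0.28, edgeR adjusted p = 0.028). cluster93 had 0.125 and 0.186 CPM in Control and 1.00 and 0.87 CPM in the knockdown, 6.02-fold higher (log2 change 2.59, SE 0.38, edgeR adjusted p = 0.0337). Its expected counts were 7.82 and 11.43 in Control and 55.67 and 52.34 in the knockdown. It therefore needed a knockdown library to enter the test, and its call carries little weight as support. cluster74 had 1.13 and 1.41 CPM in Control and 6.64 and 5.80 CPM in the knockdown, 4.89-fold higher (log2 change 2.29, SE 0.26, edgeR adjusted p = 0.0283). In these rows the knockdown replicates stood within 1.15-fold of each other, closer than in 7 of the 8 abundant rows (cluster130 is the exception). cluster89 had 0.821 and 0.547 CPM in Control and 2.86 and 3.60 CPM in the knockdown, 4.72-fold higher (log2 change 2.24, SE 0.35, edgeR adjusted p = 0.0356). cluster97 had 1.95 and 1.99 CPM in Control and 7.26 and 6.28 CPM in the knockdown, 3.44-fold higher (log2 change 1.78, SE 0.23, edgeR adjusted p = 0.0302). cluster132 is the called row with under 10 counts in both Control libraries. It entered the test only through the knockdown, and its call carries no weight as support. It rested on few reads, with 4.5 and 4.46 expected counts in Control and 20.48 and 17.38 in the knockdown. Its log2 change of 2.28 (SE 0.47) just passed (edgeR adjusted p = 0.047) but missed the threshold with DESeq2 (adjusted p = 0.114) and when no filter was used (0.0614).

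A few tested rows had groups that overlapped, a small log2 change or lower values in the knockdown. Only cluster137 and cluster73 had a log2 change below 0. cluster137 was the one tested member with both knockdown libraries below both Control libraries, at 2.96 and 2.84 against 2.29 and 2.49 CPM, a difference that missed the threshold (log2 change −0.27, SE 0.24, edgeR adjusted p = 0.399). cluster73 had 0.223 and 0.28 CPM in Control and 0.365 and 0.139 CPM in the knockdown, so that 1 knockdown library lay above and 1 below the Control pair (edgeR adjusted p = 0.963). cluster142 overlapped in the same way, with 1.78 and 1.61 CPM in Control and 2.34 and 1.38 CPM in the knockdown (edgeR adjusted p = 0.791). The log2 changes of cluster131 (0.28, SE 0.25) and cluster91 (0.32, SE 0.34) were about as large as their errors (edgeR adjusted p = 0.404 and 0.484). In both of these rows the knockdown pair still lay above the Control pair. Besides cluster73 and cluster142, groups overlapped for cluster95, cluster96, cluster128, cluster129 and cluster136.

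22 members had too few counts to be tested. Since a rise in the knockdown can bring a row past the filter, the rows left here are not a sample free of the change, and their sums are given as values only. cluster103 and cluster114 had 0 counts in all 4 libraries. cluster110 had 30.35 expected counts, or 0.546 CPM, in Nup358GLKD replicate 1 and 0 counts in each of the other 3 libraries. The other untested rows never exceeded 9.93 counts in a library. Without cluster110, the 21 rows summed to 49.81 and 50.11 counts in Control and 52.78 and 53.23 counts in the knockdown. Scaled for depth these are 0.795 and 0.815 CPM against 0.949 and 0.884 CPM. With cluster110 all 22 rows summed to 0.795 and 0.815 CPM in Control and 1.49 and 0.884 CPM in the knockdown, so that the value of Nup358GLKD replicate 1 rests largely on that row. The knockdown pair lay above the Control pair for 5 of the 21 rows and below it for 1 (cluster119). At a few reads per row, a change in a single row of this kind was not detectable at this depth.

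The rows from 101 to 142 had a lower median level than those from 71 to 100, although 3 of the 8 most abundant rows (cluster130, cluster135 and cluster141) are among them. Of the 30 rows from 71 to 100, 27 could be tested and 9 rose (33.3%), with a median level over rows of 1.16 CPM. Of the 42 rows from 101 to 142, 23 could be tested and 2 rose (cluster130 and cluster132), with a median level of 0.17 CPM. Those 2 are 8.7% of the 23, near the 9.54% of all tested features called higher. The median log2 change of the tested rows was 1.25 in the first block and 0.94 in the second. The knockdown pair lay above the Control pair for 24 of the 27 and for 18 of the 23, beside 37.9% of all tested features. The 18 include the 4 rows that passed the filter only through the knockdown (cluster108, cluster112, cluster117 and cluster132). These could enter the test only by being higher, so they are no support, and the second block's calls and median include them. The difference between the blocks was not tested. At the edge of the numbering, cluster71 had 0.184 and 0.326 CPM in Control and 1.02 and 0.605 CPM in the knockdown, and cluster72 had 0.661 and 0.532 against 1.04 and 0.754 CPM. Just outside it, cluster70 had 0.443 and 0.142 CPM in Control and 2.56 and 1.12 CPM in the knockdown, and cluster69 had 0.817 and 1.11 against 1.92 and 0.908 CPM. None of these 4 rows passed.

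Beside the rows numbered 70 or lower, the members had less RNA and differed between the groups in the same direction. The 68 lower-numbered rows summed to 295.8 and 286.9 CPM in Control and 605.2 and 518.9 CPM in the knockdown. Their ratio was 1.93, beside 2.18 for the members. cluster2 alone held 90.24 and 94.31 CPM of this sum in Control and 100.4 and 135.7 CPM in the knockdown (1.28-fold higher). The lower-numbered ratio and the members' shares given below therefore depend on that row, and the sums were not compared without it. The lower-numbered rows had a median level of 2.15 CPM per row beside 0.527 CPM for the members, and 62 of 68 could be tested. Of these 62, 11 rose, 0 fell and 51 did not pass, the median log2 change was 0.9, and the knockdown pair lay above the Control pair for 83.9%, beside 84.0% of the tested members. The members' sum was 0.43 and 0.426 of the lower-numbered sum in Control and 0.492 and 0.472 in the knockdown (exact permutation test, two-sided p = 0.333, the smallest possible). Over all cluster rows, members held 28.3% and 28.0% of the RNA in Control and 31.0% and 30.2% in the knockdown. Set against transposon rows, the members' sum was 0.0892 and 0.0892 of the transposon sum in Control and 0.0874 and 0.0693 in the knockdown, so that the ratio was nearly equal in 3 libraries and lower in Nup358GLKD replicate 2.

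**Figure D3:**
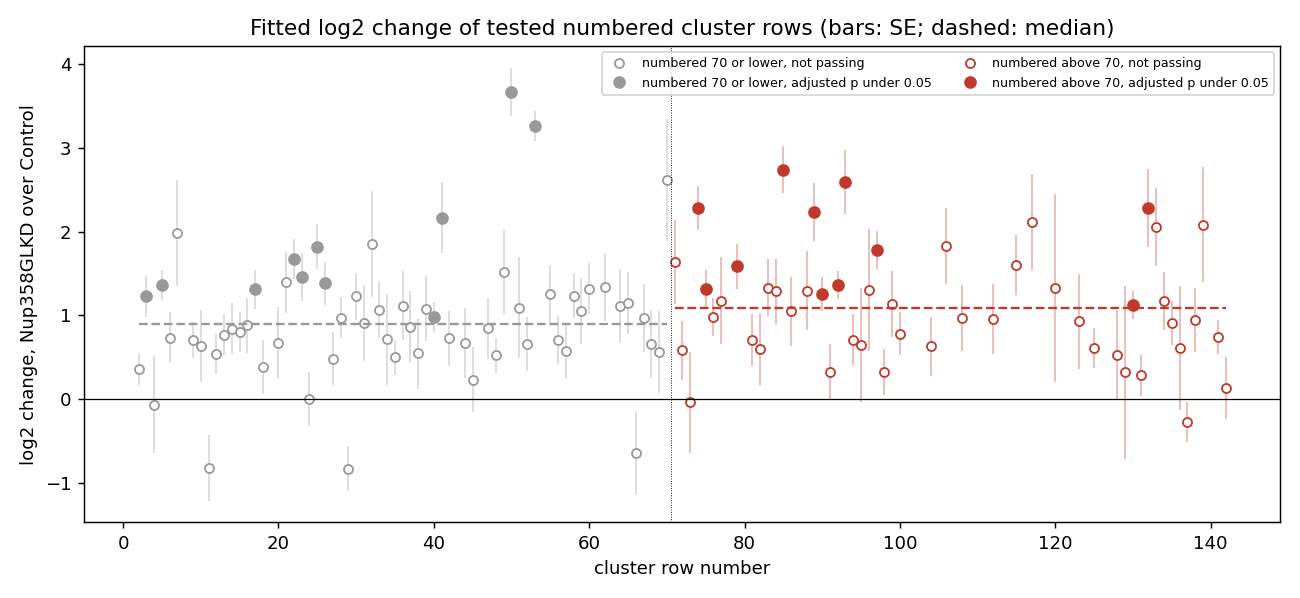
Fitted log2 change, Nup358GLKD over Control, of each tested numbered cluster row against its number, with SE bars, filled points for an adjusted p under 0.05 and dashed lines at the medians. The median is 1.09 for rows above 70 and 0.9 for rows at 70 or lower, and 48 of the 50 members lie above 0.

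The knockdown libraries differed more from each other than the Control libraries did. Among the 50 tested members the median absolute log2 difference between replicates was 0.22 in Control and 0.43 in the knockdown, beside 0.09 and 0.39 over all features. Nup358GLKD replicate 1 was the higher one for 39 of the 50 and replicate 2 for 11. The same split was 54 against 8 in the tested rows numbered 70 or lower and 73 against 20 in transposon rows. Over all tested features it was 5022 against 5185. Relative to the mean of Control, the members' median log2 ratio (after adding 0.05 CPM) was 1.18 in replicate 1 and 0.76 in replicate 2. Replicate 1 is also the library with the high muscle sheath sum, while replicate 2, with Nup358 at the lower level, had the smaller rise in most members. In the 8 abundant rows, replicate 1 was higher for 5 (cluster76, cluster79, cluster90, cluster135 and cluster141) and replicate 2 for 3 (cluster75, cluster92 and cluster130). Without Nup358GLKD replicate 1, the log2 ratio of the summed members was 0.97, beside 1.12 with it. Whether muscle sheath RNA or the level of Nup358 bears on the difference between the knockdown libraries was not tested.

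**Figure D4:**
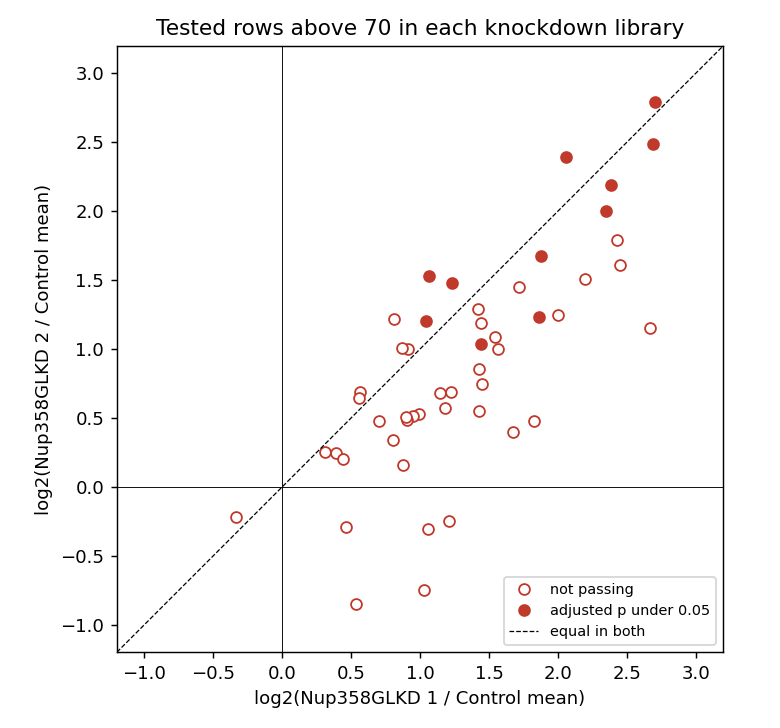
Each point is a tested cluster row above 70, with the log2 ratio of Nup358GLKD replicate 1 to the Control mean on the x axis and that of replicate 2 on the y axis. 39 points lie below the dashed line of equality, and the 11 filled points (adjusted p under 0.05) lie above 1 on both axes.

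The deposited values show that reads of these rows were divided with other sequences. RSEM gives a whole number to a row when no read is shared, and 3 of 255 values above 0 in the members were whole within 0.005 (1.18%). The share was 1.12% in the lower-numbered rows, 15.0% in transposon rows and 25.3% in RefSeq rows, where transcripts of 1 gene also share reads. A single shared read is enough to make a value fractional, so the share does not say how much of a row's RNA was assigned in this way. Members can therefore share reads with transposon rows and with each other, and they are not independent measurements.

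Genes that make and use cluster transcripts had calls in both directions. So had the whole table, where 9.54% of tested features were called higher and 9.02% lower. Whether the lists differ from the whole table was not tested. In the list for cluster transcription and export, 2 of 17 rose, 3 fell and 12 did not pass, with a median log2 change of −0.32. rhi, which encodes Rhino, fell from 36.9 and 38.4 CPM in Control to 23.0 and 20.9 CPM in the knockdown (log2 change −0.78, SE 0.13, edgeR adjusted p = 0.0377). Its partner genes had lower values in the knockdown without passing, del with 184.3 and 188.8 against 139.4 and 165.8 CPM (edgeR adjusted p = 0.162) and cuff with 4.29 and 5.09 against 3.27 and 2.89 CPM (edgeR adjusted p = 0.128). kipf, whose zinc finger protein brings Rhino to part of its sites, rose from 38.4 and 39.2 to 77.87 and 72.01 CPM (log2 change 0.95, SE 0.12, edgeR adjusted p = 0.0293). Hel25E, the RNA helicase that accompanies cluster transcripts toward export, rose from 360.7 and 374.0 to 605.0 and 594.8 CPM (edgeR adjusted p = 0.0337).

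In the nuclear silencing list, 1 of 12 rose, 5 fell and 6 did not pass (all features: 9.54% higher, 9.02% lower). Its median log2 change was −0.33. The smallest p-values were those of wde, a cofactor of the H3K9 methyltransferase Eggless, Panx and mael, which fell 2.22-fold, 2.89-fold and 2.07-fold (each edgeR adjusted p = 0.028). In the piRNA processing list, 4 of 25 rose, 3 fell and 18 did not pass, beside the same shares of all features. Its median log2 change was 0.04. BoYb, a Tudor-domain gene, fell 3.86-fold (edgeR adjusted p = 0.0275), its relative SoYb rose 1.88-fold (0.0293) and the arginine methyltransferase gene csul fell 1.73-fold (0.0301). The calls in these 3 lists depended on both Control libraries, as did all calls of higher features in the table. Fits that lack a Control library therefore say nothing particular to the lists or to the members.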

How the data were processed

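Libraries of adult ovary RNA, 2 Control and 2 Nup358GLKD, took their groups from the labels. Per the labels' protocols, the RNA was enriched for poly(A) before a TruSeq RNA library kit was used. Per the submitters' processing notes, the tools were Bowtie2 and RSEM and the build was dm3, while versions, annotation, strand setting and filters were not given in the sources used here. The deposited table holds RSEM's expected counts, which are not scaled for depth or length.

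For testing, RefSeq rows were added up by gene (33997 of 34437 rows had a gene in NCBI's RefSeq table of Release 6, from which only names were taken) and rounded, while CPM come from unrounded values. The test was edgeR 4.0.16 under R 4.3.3 (glmQLFit, robust=TRUE, legacy=FALSE; TMM factors; filterByExpr at a minimum count of 10 and a minimum total of 15). Adjusted p-values follow Benjamini-Hochberg over all 10210 tested features, with 0.05 as threshold. Each SE was derived from the test, as the absolute log2 change divided by the square root of its F statistic. Folds are ratios of mean CPM for cluster rows and fitted values for genes. Named rows were those at an adjusted p under 0.05, the 10 with the highest mean level, the 5 largest and 5 smallest log2 changes, rows at 0 in 1 group or in all libraries, and rows beside the numbering threshold. Each pathway list gave up to 3 passing genes with the smallest p, plus Nup358, rhi, del and cuff. The members and lists were chosen with earlier results of these data known. Alternatives were RLE factors, total counts, DESeq2 1.42.0, limma-voom (limma 3.58.1), legacy=TRUE, no filter, a replicate block, unsummed RefSeq rows and leaving out each library, where a lone library is taken to be as variable as the other group. Floors cover counting error only. The code was tested on simulated data. Chi-square per degree of freedom between replicates was 16.2 in Control and 404 in Nup358GLKD over all features, and 2.1 and 19.3 over tested members. No pair of libraries agreed within sampling noise, so each was counted as its own sample, which does not show that they came from separate flies.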

Additional observations from a re-analysis of the deposited data

How the results depend on the processing

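The count of 11 members called higher was 0 with unsummed RefSeq rows, and 0 to 35 when each library was left out in turn. Of the 16 rows called with DESeq2 and the 12 called with the replicate block (under which 12.1% of all features were called higher), 10 each were among the 11. No member was called lower under any of these alternatives. The median log2 change of tested members was 0.80 to 1.20 when each library was left out and 0.89 to 1.11 under the other alternatives, and the log2 ratio of summed members was 0.97 to 1.23 and 1.03 to 1.14. The lowest median and the lowest ratio came without Nup358GLKD replicate 1. The unfiltered fit moved the median of all features to 0.17, and its median for the members (0.89) is to be read against that. Leaving out each library in turn moved the log2 change of cluster142 between −0.30 (without Nup358GLKD replicate 1) and 0.44, and that of cluster73 between −0.90 and 0.49 (without Nup358GLKD replicate 2; 0.10 without Control replicate 2), and neither row passed. The cause of these differences was not tested. The labels do not say whether equal replicate numbers pair the libraries. Deviations of same-numbered libraries correlated at 0.123 over all features and −0.276 over tested members, and with the block cluster132 had an adjusted p of 0.0747 and cluster76 of 0.0431. With counts of 10 or fewer in most of the 22 untested rows, depth limits what can be said of each.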
